A study of Homo sapiens with 24 samples.

Results

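The aminoacyl-tRNA synthetase genes were followed in 4 human cancer cell lines treated with EPZ015666, which blocks PRMT5, an enzyme that methylates arginines of histones, splicing factors and other proteins. The members were the genes of the deposited table whose symbol is a single letter followed by ARS or ARS2, together with EPRS, FARSA and FARSB. The rule used no measured value, and it found 33 of the 16591 genes. Of these, 20 carry no 2 and encode cytosolic enzymes, and 13 end in 2 and encode mitochondrial enzymes. AARS2, FARS2, MARS2 and SARS2 were not analysed here. BT549 and MDAMB436 are breast cancer lines and OVCAR8 and COV362 are ovarian cancer lines. Cells received 5 µM EPZ015666 or the DMSO vehicle. BT549 and OVCAR8 were collected at day 3 and day 5, COV362 and MDAMB436 at day 5 alone, each time with DMSO libraries of the same line and day. That gives 12 groups of 2 poly(A) RNA libraries each, lettered A and B. Each line stands for its tissue alone or beside a single other line, and whether A and B are separate cultures is not stated. The p-values therefore reflect only how far the libraries of a group differ, and that spread may be technical.

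Aminoacyl-tRNA synthetases join each amino acid to its transfer RNA, the step that supplies the ribosome with charged tRNA. For most amino acids the nucleus encodes separate enzymes for the cytosol and for mitochondria. GARS (glycine) and KARS (lysine) make both forms from a single gene, and mitochondrial glutaminyl-tRNA is made with an amidotransferase. EPRS charges glutamate and proline in a single polypeptide, and FARSA and FARSB encode the alpha and beta subunits of the phenylalanine enzyme. EPRS, IARS, LARS, MARS, QARS, RARS, KARS and DARS sit in the multisynthetase complex, held together by the scaffold proteins AIMP1, AIMP2 and EEF1E1. Many cytosolic synthetase genes are known targets of ATF4, the transcription factor of the amino acid and unfolded protein responses, which binds the C/EBP-ATF response element.

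The promoter stretches below are shown because they hold the core letters of that element, TGATGNAA, read on both strands. RefSeq windows from 250 bases before to 50 after a start site (GRCh38.p14) were matched for 27 of the 33 members, and the element was chosen with the members' changes known. The letters stood in a window of 7 of the 16 matched cytosolic members and of 1 of the 11 matched mitochondrial members. Among all 27305 genes with windows 4.46% held them, and among all 35116 windows 3.62%, against 8 of the 35 windows of members (22.9%). YARS, DARS, LARS, VARS and VARS2 were among those with no matched window. Capitals mark the element letters, and each stretch runs 5′ to 3′ on the strand of its gene. In GARS (chr7:30594834-30594863, plus strand) the letters begin 33 bases before the start site. In IARS (chr9:92293698-92293721, minus strand) they begin 13 bases before it, in MARS (chr12:57488053-57488082, plus strand) 4 bases and in CARS (chr11:3057407-3057436, minus strand) 2 bases before it. In TARS (chr5:33440956-33440985, plus strand) they begin 2 bases and in NARS (chr18:57621804-57621833, minus strand) 14 bases after it. In AARS (chr16:70289675-70289704, minus strand) they lie 187 bases and in YARS2 (chr12:32756076-32756105, minus strand), the mitochondrial tyrosine enzyme, 197 bases before it. A match is a run of letters and not a shown binding site.
GARS: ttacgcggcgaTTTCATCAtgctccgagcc
IARS: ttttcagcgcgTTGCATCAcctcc
MARS: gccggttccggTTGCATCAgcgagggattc
CARS: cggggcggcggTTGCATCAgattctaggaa
TARS: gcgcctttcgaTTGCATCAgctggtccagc
NARS: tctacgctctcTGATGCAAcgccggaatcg
AARS: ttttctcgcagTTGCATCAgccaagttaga
YARS2: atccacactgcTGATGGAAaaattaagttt

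The table gives RPKM, reads per kilobase scaled to the size of the library, with each gene's length taken as its whole span including introns. The reads recovered from these values summed to between 23.77 M and 44.96 M per library (median 27.8 M), and a member had 255 to 37943 reads in a library. Groups of 2 libraries limit the precision, and the standard error (SE) of each change is given. RPKM is a share of a library, so fewer cells of a kind and less RNA per cell cannot be told apart. Reads of 4 genes of a ribosomal RNA locus took 4.54% of OVCAR8 EPZ015666 day 5 library B and 1.39% of BT549 EPZ015666 day 3 library A, against 0.226% to 0.799% in the other libraries; their part in the results was not tested. Markers fitted the labels in part. KRT18, an epithelial gene, stood at 7.92 to 183 RPKM in the 4 lines, and VIM, a mesenchymal gene, at 44.1 to 133. The other epithelial genes read were low in BT549 (EPCAM 0.000471, KRT7 0.0467, KRT8 0.0387, KRT19 0.117). They were also low in MDAMB436 (EPCAM 0.0623, KRT7 0.165, KRT8 1.11, KRT19 0.007). MSLN, an ovarian and mesothelial marker, stood at 22.2 in COV362 and 47.3 in OVCAR8, while PAX8 was 0.349 and 0.0699 there. MSLN was 3.08 in BT549 and 0.858 in MDAMB436. Other ovarian markers did not follow the labels. WT1 was 0.208 in COV362 and 0.0387 in OVCAR8, against 0.152 in BT549 and 0.191 in MDAMB436. MUC16 was 0.595 in COV362 and 0.0 in OVCAR8, against 0.00169 in BT549 and 0.137 in MDAMB436. GATA3, a luminal breast marker, was 4.21 in BT549 and 0.0589 in MDAMB436, against 0.321 in OVCAR8 and 0.0365 in COV362. ERBB2, also read for breast, was 3.86 in BT549, 3.13 in OVCAR8, 1.74 in MDAMB436 and 1.49 in COV362. COL1A1, a fibroblast gene, was 58.4 in BT549 and 50.3 in OVCAR8, against 0.746 in COV362 and 0.412 in MDAMB436. Transcripts of PRMT5, which the drug inhibits as a protein, rose by 0.30 ± 0.0324 (log2, SE) over the 4 lines at day 5 (limma, adjusted p = 1.44e-06).

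Levels of different genes were compared per kilobase of exon in the DMSO libraries of day 5. The cytosolic genes had medians of 34.7 (BT549), 37.4 (OVCAR8), 41.0 (COV362) and 51.1 (MDAMB436) on that scale. The mitochondrial genes had medians of 7.71, 10.8, 11 and 11.2 in the same order. The ranges overlapped. IARS2, the mitochondrial isoleucine enzyme, reached 44.2 ± 0.123 (SD, n = 2) in BT549 and 69.0 ± 1.72 in MDAMB436, above the cytosolic median of both lines. WARS, the cytosolic tryptophan enzyme, was the lowest cytosolic gene in BT549 (4.29 ± 0.194) and OVCAR8 (6.26 ± 0.261), and CARS, for cysteine, in COV362 (5.0 ± 0.176) and MDAMB436 (8.94 ± 0.0781). SARS, the serine enzyme (131.0 ± 3.41), and AARS, the alanine enzyme (131.0 ± 2.72), were the highest in OVCAR8 and did not differ beyond their spread, and IARS was the highest in MDAMB436 (140.0 ± 2.87).

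The lines differed most in WARS, whose mean RPKM over the gene span in DMSO at day 5 ran from 0.677 in BT549 to 3.68 in COV362, a 5.44-fold range. CARS2 (mitochondrial, cysteine) followed with a 4.32-fold range, lowest in COV362 (0.363) and highest in MDAMB436 (1.57). NARS2 (mitochondrial, asparagine) spanned 4.16-fold and IARS 3.98-fold. The median range over lines was 2.36-fold for the 20 cytosolic and 1.9-fold for the 13 mitochondrial genes. GARS varied little among the lines, from 5.13 in OVCAR8 to 7.47 RPKM in COV362. These differences between lines are a description and were not tested.

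The comparison of EPZ015666 with DMSO asks which of these genes changed with PRMT5 inhibition. The median change was above 0 for cytosolic members and near 0 for mitochondrial members in all 6 comparisons of drug and vehicle. Changes are differences of log2(RPKM + 0.1), which understates the change of low genes. In OVCAR8 at day 5 the median change was 0.286 over cytosolic and -0.0518 over mitochondrial members, a difference of 0.338 (SD between libraries 0.0177). In COV362 the medians were 0.353 and 0.0352, a difference of 0.317 (SD 0.0225), and without GARS and KARS, which serve both compartments, the difference was 0.268. OVCAR8 at day 3 gave 0.218 and -0.0333, a difference of 0.251 (SD 0.0409). The breast lines had smaller differences, 0.164 (SD 0.0472) in BT549 at day 5, 0.121 (SD 0.0558) at day 3 and 0.148 (SD 0.0498) in MDAMB436. The BT549 day 5 difference was 0.0379 when the DMSO libraries of day 3 served as the vehicle. The median over all tested genes lay between -0.00457 and 0.0068 in the 6 comparisons. Both classes held exceptions, since the lowest cytosolic change was -0.634 (QARS in COV362) and the highest mitochondrial one 0.55 (VARS2 in OVCAR8).

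**Figure D1:**
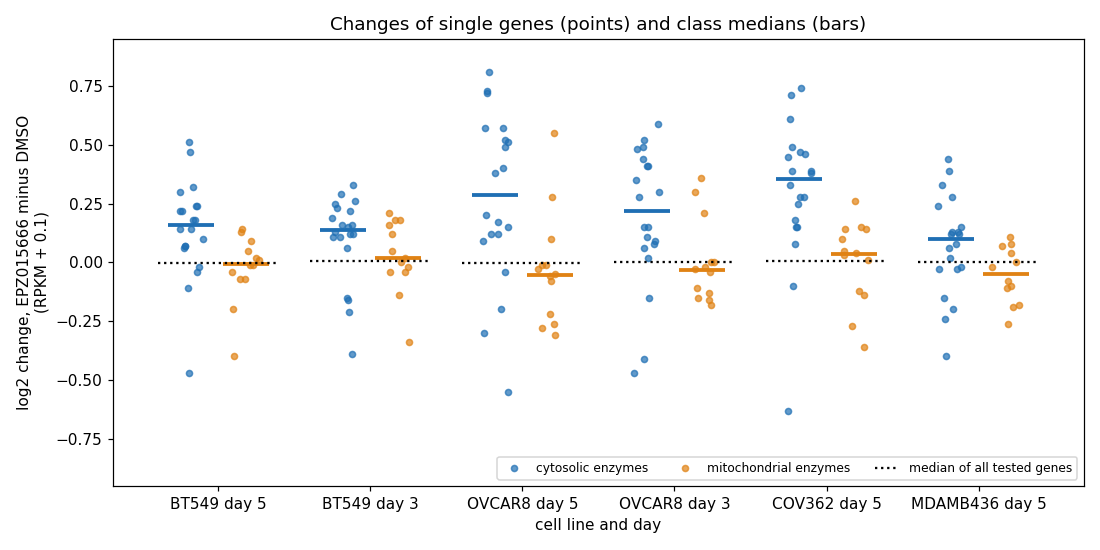
Log2 change (EPZ015666 minus DMSO, RPKM + 0.1) of each member in the 6 comparisons, cytosolic genes in blue and mitochondrial genes in orange. Thick bars are class medians and the dotted line is the median of all tested genes; the cytosolic median lies above the mitochondrial one in each comparison, by 0.121 to 0.338.

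A gene was called when its p in limma, adjusted by the Benjamini-Hochberg method over all tested genes, was under 0.05. In COV362 16 of 20 cytosolic members rose and 1 fell (QARS), against 53.9% of all tested genes called, 27.6% higher and 26.4% lower. In OVCAR8 at day 5 14 rose and 3 fell (QARS, VARS, FARSA), where 43.2% of all genes were called, 20.2% of all genes higher and 23% lower. At day 3 11 rose and 2 fell (QARS, VARS), with 25.6% of all genes called, 11.5% higher and 14.1% lower. In BT549 at day 5 8 rose and 1 fell (QARS), with a background of 30.2% called, 13.6% higher and 16.6% lower. At day 3 5 rose and 2 fell (QARS, VARS), with 12.7% of all genes called, 5.76% higher and 6.98% lower. In MDAMB436 5 rose and 4 fell (QARS, VARS, LARS, FARSA), with 23.6% called, 11.3% higher and 12.4% lower. Over the 6 comparisons 59 of 120 cytosolic tests were calls of a rise and 13 of a fall.

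Mitochondrial members had 7 calls of a rise and 12 of a fall in 77 tests, which count BT549 and OVCAR8 at both days. In OVCAR8 at day 5, 2 of 13 rose and 4 fell, where 20.2% of all tested genes were higher and 23% lower. Day 3 had 3 rises and 2 falls, with 11.5% of all genes higher and 14.1% lower. In COV362 2 of 13 rose and 3 fell, with 27.6% higher and 26.4% lower. BT549 had 1 fall at each day (CARS2), where 16.6% of all genes were lower at day 5 and 6.98% at day 3. MDAMB436 had 1 fall of 12, with 12.4% lower. NARS2 was below the filter of a mean of 0.1 RPKM there. The share of mitochondrial members called lay below that of all tested genes in each comparison except OVCAR8 at both days. No test compared the 2 classes.

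Many calls were lost in the smaller fits that leave out a library, while no called change reversed its sign there. In MDAMB436 none of the 10 calls was kept when any single one of the 4 libraries was left out, nor with the replicate letter as a block. The sizes moved less, with GARS at 0.40 to 0.48, AARS at 0.31 to 0.35, QARS at -0.17 to -0.14 and DARS at 0.29 to 0.49 without a library. In BT549 at day 3 none of the 8 calls was kept in all 4 such fits; without DMSO library A, DMSO library B, EPZ015666 library A and EPZ015666 library B the counts were 6, 1, 3 and 0. In BT549 at day 5 4 of 10 (YARS, QARS, IARS, CARS2) were kept in every such fit, and the counts were 6 without DMSO A, 5 without DMSO B, 4 without EPZ015666 A and 5 without EPZ015666 B. In COV362 14 of 22 were kept, and the count was 14 without either DMSO library. In OVCAR8 17 of 23 calls at day 5 and 13 of 18 at day 3 were kept. Among the ovarian lines, the calls lost whichever library was left out included DARS in OVCAR8 at day 5, TARS2 at day 3, and LARS, TARS2, WARS2 and YARS2 in COV362. In each of the 91 calls both drug libraries lay on the same side of both vehicle libraries. With 2 libraries per group a small p largely brings this order with it, so it adds no support. SARS in BT549 at day 5 had the same order without a call (ratio of means 1.04). The share over all tested genes was not computed.

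**Figure D2:**
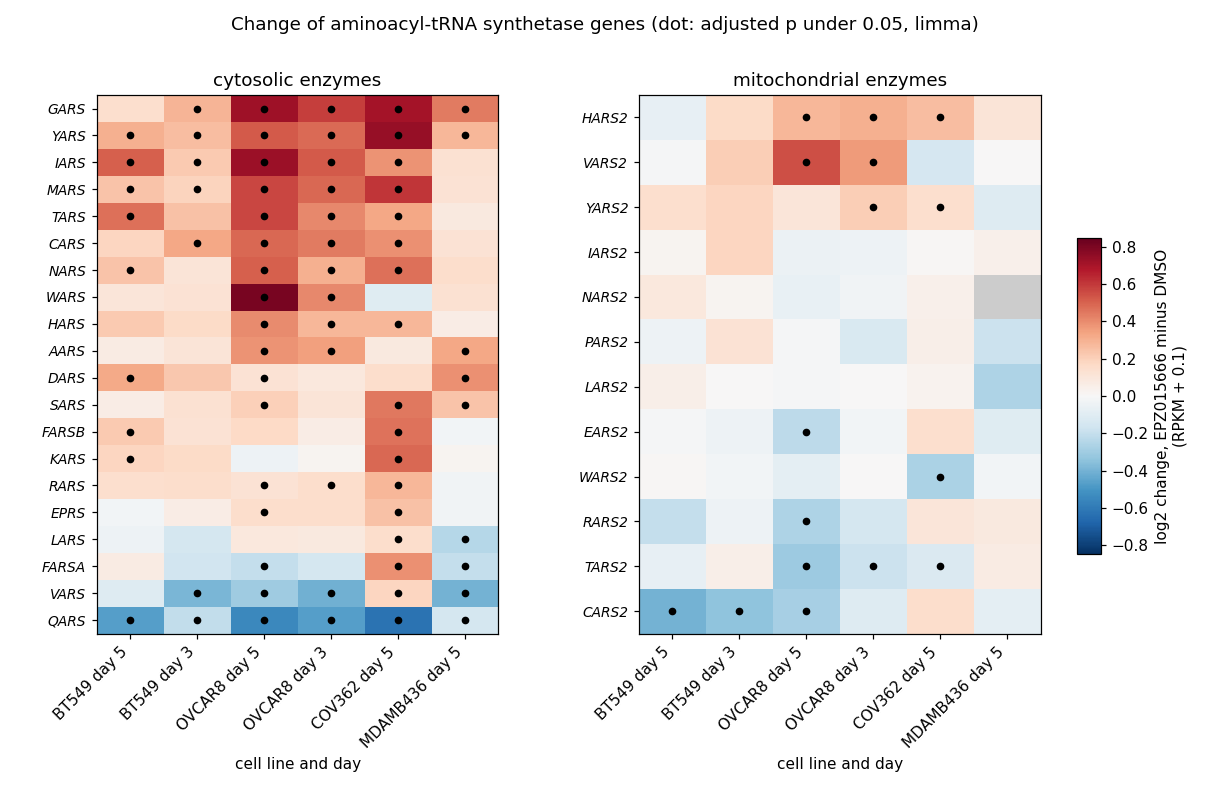
Log2 change (EPZ015666 minus DMSO, RPKM + 0.1) of the 20 cytosolic and 12 of the mitochondrial members in the 6 comparisons, red for higher and blue for lower, with a dot where the adjusted p (limma) was under 0.05. Genes are ordered by their mean change; QARS is blue with a dot in all 6 columns, YARS red with a dot in all 6, and NARS2 in MDAMB436 (grey) was not tested.

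QARS, which charges glutamine in the cytosol, fell in all 6 comparisons, alone among the members. In BT549 at day 5 the DMSO libraries had 32.3 and 31.8 RPKM and the EPZ015666 libraries 22.7 and 23.6. At day 3 the same line had 26.6 and 28.3 with DMSO and 23.7 and 23.8 with the drug. In OVCAR8 the values were 42.7 and 42.5 against 29.5 and 28.6 at day 5. The drug libraries lay below the vehicle libraries without overlap in each. OVCAR8 at day 3 had 36.5 and 35.7 against 25.9 and 26.2 RPKM. COV362 had 24.4 and 23.6 against 15.4 and 15.5, the widest relative gap. MDAMB436 had 15.7 and 15.6 against 13.9 and 14.2, the narrowest. The log2 changes (± SE) were -0.47 ± 0.0436 in BT549 at day 5 (limma, adjusted p = 0.00152) and -0.21 ± 0.0436 at day 3 (0.0353). In OVCAR8 they were -0.55 ± 0.0257 (adjusted p = 0.000174) and -0.47 ± 0.0257 (0.000649). In COV362 QARS changed by -0.63 ± 0.0261 (adjusted p = 0.00163) and in MDAMB436 by -0.15 ± 0.0297 (0.0415). Averaged over the 4 lines at day 5 the change was -0.45 ± 0.0149 (adjusted p = 7.67e-12), in a fit where 65.6% of all tested genes were called. The BT549 day 3 call was lost without DMSO library B, EPZ015666 library A or EPZ015666 library B, and with the replicate letter as a block. The MDAMB436 call was lost whichever library was left out, and with that block.

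QARS lies on chromosome 3 (GRCh38, 49095932 to 49105135, minus strand) with 24 exons in a span of 9.2 kb. Its neighbours on the same strand were read for their values, and this choice was made after those values were seen. QRICH1, on the one side, passed in COV362 alone (0.22 ± 0.034, limma adjusted p = 0.0134), as a rise. USP19, on the other, passed in none of the 6 and lay between -0.12 and 0.03. LAMB2, the laminin beta 2 chain and the next gene beyond USP19, fell in BT549 (-1.51 ± 0.0521 at day 5 and -0.88 ± 0.0521 at day 3), OVCAR8 (-0.87 and -0.62 ± 0.0371) and COV362 (-1.55 ± 0.0242), and had -0.26 ± 0.059 in MDAMB436 (adjusted p = 0.0537).

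YARS, the cytosolic tyrosine enzyme, was the member that rose in all 6 comparisons. In BT549 the DMSO libraries had 5.7 and 5.51 RPKM at day 5 and the EPZ015666 libraries 6.88 and 6.95. At day 3 they had 5.98 and 5.91 against 6.97 and 7.36. In OVCAR8 the values were 4.78 and 4.67 against 6.84 and 6.78 at day 5. Each drug library exceeded each vehicle library. OVCAR8 at day 3 had 4.64 and 4.49 against 6.42 and 6.42. COV362 had 5.98 and 5.85 against 9.77 and 10.1, the largest rise of any cytosolic member in that line. MDAMB436, where YARS was highest to begin with, had 10.3 and 10.5 against 12.4 and 12.8. The changes were 0.30 ± 0.0424 and 0.26 ± 0.0424 in BT549 at days 5 and 3, 0.52 ± 0.0277 and 0.48 ± 0.0277 in OVCAR8, 0.74 ± 0.029 in COV362 and 0.28 ± 0.0359 in MDAMB436. The common effect at day 5 was 0.46 ± 0.0157 (limma, adjusted p = 1.13e-11). The BT549 day 3 call was lost without DMSO library B or EPZ015666 library B. The MDAMB436 call was lost whichever library was left out, and with the replicate letter as a block.

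**Figure D3:**
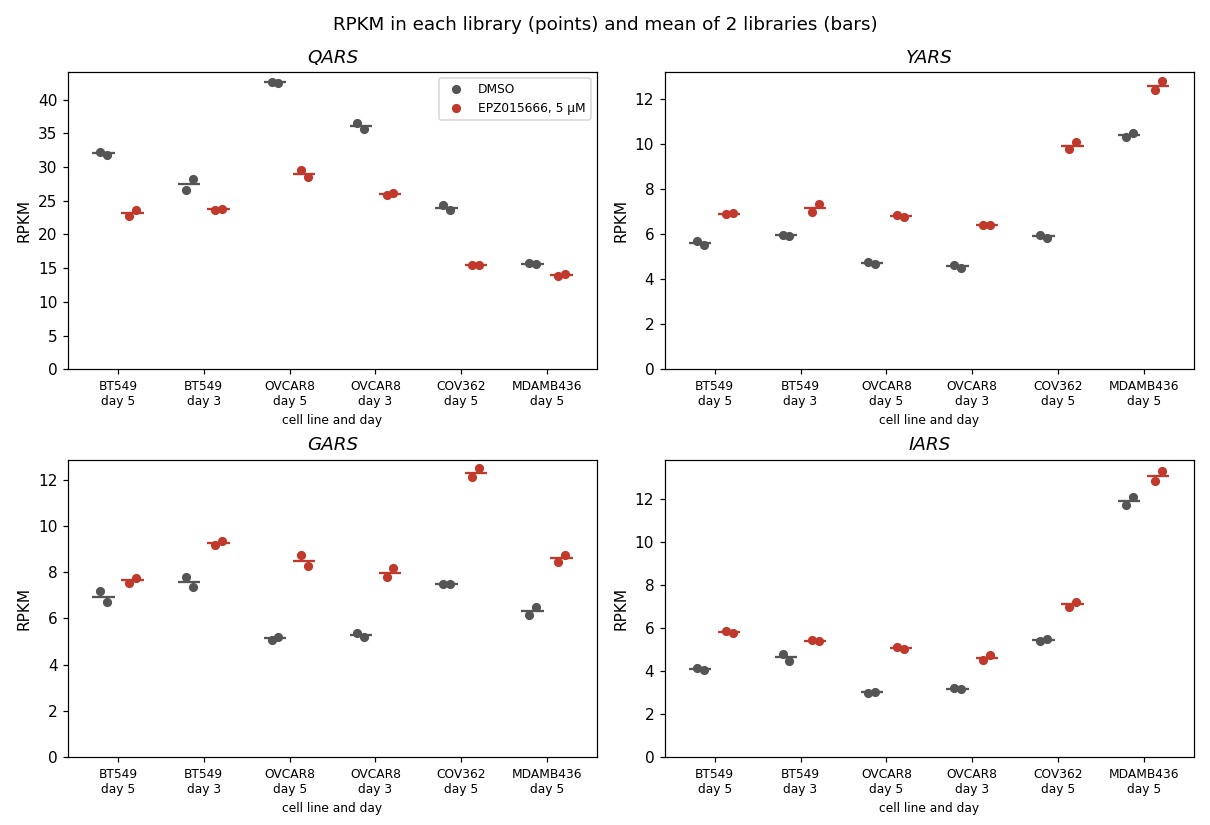
RPKM over the gene span of QARS, YARS, GARS and IARS in each library (points) and the mean of 2 libraries (bars), DMSO in grey and 5 µM EPZ015666 in red, by line and day, with the axis from 0. QARS points are lower with the drug in all 6 pairs of groups and YARS points higher, from 5.98 and 5.85 to 9.77 and 10.1 in COV362.

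GARS, IARS and MARS rose in 5 of the 6 comparisons. GARS, the glycine enzyme of both compartments, had 5.06 and 5.2 RPKM with DMSO and 8.75 and 8.25 with EPZ015666 in OVCAR8 at day 5. At day 3 it had 5.36 and 5.18 against 7.78 and 8.16. In COV362 it had 7.47 and 7.47 against 12.1 and 12.5. These were rises of 0.72 ± 0.0428, 0.59 ± 0.0428 and 0.71 ± 0.0276. MDAMB436 had 6.15 and 6.51 against 8.45 and 8.74 (0.44 ± 0.0457, its largest member change), and BT549 at day 3 had 7.77 and 7.37 against 9.17 and 9.33 (0.29 ± 0.0504). BT549 at day 5 had values of 7.17 and 6.69 against 7.52 and 7.76, a change of 0.14 ± 0.0504 that did not pass (limma, adjusted p = 0.0886). Over the 4 lines GARS had the largest common effect of the members, 0.50 ± 0.0219 (adjusted p = 1.18e-10).

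IARS, for isoleucine, had its largest rise in OVCAR8 at day 5, from 2.97 and 3.02 to 5.1 and 5.0 RPKM (0.73 ± 0.0316, limma adjusted p = 0.000147). At day 3 it went from 3.2 and 3.16 to 4.51 and 4.72 (0.52 ± 0.0316). In BT549 it went from 4.11 and 4.02 to 5.85 and 5.78 at day 5 (0.51 ± 0.046) and from 4.8 and 4.46 to 5.42 and 5.4 at day 3 (0.22 ± 0.046). No drug library overlapped its vehicle libraries here. In COV362 IARS had 5.4 and 5.49 against 6.99 and 7.21 (0.38 ± 0.0287). In MDAMB436, the line with the highest level, it had 11.7 and 12.1 against 12.8 and 13.3, and 0.13 ± 0.0409 did not pass (adjusted p = 0.103). MARS, for methionine, rose from 5.58 and 5.42 to 8.34 and 8.51 in COV362 (0.61 ± 0.0287) and from 7.14 and 7.19 to 10.9 and 10.5 in OVCAR8 at day 5 (0.57 ± 0.0295). Its rise at day 3 in OVCAR8 was 0.49 ± 0.0295, from 6.92 and 7.09 to 9.75 and 10. In BT549 MARS had 3.08 and 3.24 against 3.76 and 3.76 at day 5 (0.24 ± 0.0448) and 3.49 and 3.62 against 3.99 and 4.14 at day 3 (0.19 ± 0.0448). MDAMB436 had 4.64 and 4.62 against 4.86 and 5.24 and did not pass. The span of MARS overlaps DDIT3 and ARHGAP9 on the other strand, and the strand setting of the counting is not given in the sources used here. DDIT3 passed in COV362 alone, with 0.163 and 0.153 RPKM against 0.506 and 0.502. The BT549 day 3 calls of GARS and IARS were lost without DMSO B, EPZ015666 A or EPZ015666 B. That of MARS was lost whichever library was left out, and its BT549 day 5 call without DMSO A, EPZ015666 A or EPZ015666 B. The MDAMB436 call of GARS was lost whichever library was left out.

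TARS, CARS, NARS, AARS and HARS each rose in OVCAR8 at both days. TARS, for threonine, rose by 0.57 ± 0.0328 in OVCAR8 at day 5 (7.91 and 8.09 against 11.7 and 12.1 RPKM), 0.41 ± 0.0328 at day 3 and 0.33 ± 0.0334 in COV362. BT549 at day 5 had 6.22 and 5.98 against 8.56 and 8.39 (0.47 ± 0.0751, limma adjusted p = 0.00778), a call lost without DMSO B or EPZ015666 A and with the day 3 vehicle. CARS, for cysteine, had its largest BT549 change at day 3, from 0.826 and 0.819 to 1.05 and 1.07 (0.33 ± 0.057), a call lost whichever library was left out, and rose by 0.49, 0.44 and 0.39 in OVCAR8 at days 5 and 3 and in COV362. NARS, for asparagine, rose by 0.51 ± 0.0557 and 0.30 ± 0.0557 in OVCAR8, 0.47 ± 0.0275 in COV362 and 0.24 ± 0.0542 in BT549 at day 5. The NARS call of OVCAR8 at day 3 was lost without either DMSO library, and that of BT549 without any single library. AARS, for alanine, rose by 0.38 and 0.35 ± 0.0293 in OVCAR8 and by 0.33 ± 0.0329 in MDAMB436, where it had 7.81 and 7.88 against 9.75 and 10, and had 0.08 ± 0.026 in COV362 (adjusted p = 0.0702). The MDAMB436 call of AARS was lost whichever library was left out. HARS, for histidine, rose by 0.40 and 0.28 ± 0.0356 in OVCAR8 and 0.28 ± 0.027 in COV362. The heads of HARS and HARS2 overlap on opposite strands, as does HARS with WDR55, so their reads could be shared without strand; WDR55 fell in OVCAR8 (-0.46 ± 0.0746 at day 5). YARS likewise overlaps S100PBP on the other strand, KARS overlaps TERF2IP and YARS2 overlaps DNM1L. So do WARS with WDR25, CARS2 with ING1 and EARS2 with UBFD1.

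SARS, DARS and RARS each rose in 3 comparisons. SARS, for serine, rose in COV362 from 10 and 9.63 to 13.2 and 13.7 RPKM (0.45 ± 0.0366), in OVCAR8 at day 5 by 0.20 ± 0.0329 and in MDAMB436 by 0.24 ± 0.0503. DARS, for aspartate, rose in MDAMB436 from 0.547 and 0.638 to 0.797 and 0.814 (0.39 ± 0.082, limma adjusted p = 0.0478) and in BT549 at day 5 from 1.43 and 1.37 to 1.83 and 1.73 (0.32 ± 0.0657). Its calls in those lines and in OVCAR8 at day 5 (0.12 ± 0.0334) were each lost whichever library was left out. So was the MDAMB436 call of SARS. RARS, for arginine, rose by 0.28 ± 0.0481 in COV362 and by 0.12 and 0.15 ± 0.0292 in OVCAR8 at days 5 and 3; each of these calls was lost in at least 2 of the 4 fits without a library. The drug libraries of these genes stood above the vehicle libraries in every comparison that passed.

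KARS, EPRS, FARSA and FARSB each had their largest rise in COV362. KARS, the lysine enzyme of both compartments, rose in COV362 from 11.6 and 11.5 to 16.2 and 16.4 RPKM (0.49 ± 0.0221, limma adjusted p = 0.0017). At day 5 in BT549 it rose from 8.49 and 8.13 to 9.32 and 9.49 (0.18 ± 0.0502), a call lost whichever library was left out. In OVCAR8 it had 4.86 and 4.68 against 4.71 and 4.58 at day 5, and in MDAMB436 9.41 and 9.49 against 9.44 and 9.67; neither passed. EPRS rose in COV362 from 5.71 and 5.72 to 6.68 and 6.92 (0.25 ± 0.0285) and in OVCAR8 at day 5 from 3.9 and 3.73 to 4.38 and 4.14 (0.15 ± 0.0444). The COV362 call of EPRS was lost without DMSO A or DMSO B and the OVCAR8 call without DMSO A, DMSO B or EPZ015666 A. In the other comparisons EPRS lay between -0.03 and 0.15 and did not pass.

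FARSA and FARSB, whose products form 1 enzyme, both rose in COV362, and FARSA fell in OVCAR8 at day 5 and MDAMB436. FARSA rose in COV362 from 9.23 and 9.4 to 12.3 and 12.3 RPKM (0.39 ± 0.0227, limma adjusted p = 0.00214). FARSA had its falls in OVCAR8 at day 5, from 5.96 and 6.25 to 5.58 and 5.04 (-0.20 ± 0.0606, adjusted p = 0.0447) and in MDAMB436 from 17.8 and 17.5 to 14.9 and 15.8 (-0.20 ± 0.0419, adjusted p = 0.0477). The OVCAR8 fall was lost without DMSO A, DMSO B or EPZ015666 B, and the MDAMB436 fall whichever library was left out. FARSB rose in COV362 from 1.35 and 1.32 to 1.81 and 1.93 (0.46 ± 0.0435) and in BT549 at day 5 from 0.871 and 0.823 to 0.997 and 1.01 (0.22 ± 0.0548), the latter lost whichever library was left out. FARSB in OVCAR8 at day 5 had 1.01 and 0.942 against 1.13 and 1.09 (0.17 ± 0.0788, not passed). LARS, for leucine, also had opposite calls, a rise in COV362 from 3.11 and 3.21 to 3.45 and 3.6 (0.15 ± 0.0369) and a fall in MDAMB436 from 4.82 and 4.9 to 4.06 and 4.16 (-0.24 ± 0.0344), each lost whichever library was left out.

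The 8 enzymes of the multisynthetase complex, a grouping taken from textbook knowledge after the values were seen, held both QARS and several of the risers. In OVCAR8 at day 5, where 20.2% of all genes rose and 23% fell, 5 rose and 1 fell, with a median of 0.118, against 9 rises and 2 falls and a median of 0.447 among the 12 other cytosolic members. At day 3 the medians were 0.117 in the complex and 0.327 outside it. In COV362 6 rose and 1 fell (median 0.263), against 10 rises and no fall outside the complex (median 0.39), with 27.6% of all genes higher and 26.4% lower. In MDAMB436 the medians were -0.0072 and 0.124. BT549 had 0.157 in the complex and 0.159 outside it at day 5, and 0.157 and 0.125 at day 3. The scaffold genes AIMP1 (0.33 ± 0.0518) and AIMP2 (0.55 ± 0.0362) passed in COV362 alone among the 6 comparisons, as rises. EEF1E1 was not analysed here.

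VARS, the cytosolic valine enzyme, fell in 4 comparisons and rose in COV362. In OVCAR8 it had 12.6 and 13.7 RPKM against 10.9 and 10.5 at day 5 and 13.5 and 13.3 against 10.3 and 9.72 at day 3. BT549 had 8.18 and 8.87 against 6.75 and 6.18 at day 3, and 7.61 and 8.22 against 7.3 and 7.33 at day 5. MDAMB436 had 9.81 and 9.38 against 7.04 and 7.41. In each of these groups the drug libraries were the lower ones. COV362 had 12 and 12.2 against 13.8 and 13.5. The changes that passed were -0.30 and -0.41 ± 0.0526 in OVCAR8, -0.39 ± 0.068 in BT549 at day 3, -0.40 ± 0.0465 in MDAMB436 and 0.18 ± 0.0237 in COV362 (limma, adjusted p = 0.00954). The change of -0.11 ± 0.068 in BT549 at day 5 did not pass. The COV362 rise was lost without DMSO A or DMSO B, and the BT549 day 3 fall without DMSO B or EPZ015666 B. The MDAMB436 fall was lost whichever library was left out.

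WARS, the cytosolic tryptophan enzyme and a known target of interferon gamma, rose in OVCAR8 and passed in no other line. At day 5 it had 0.938 and 0.888 RPKM against 1.69 and 1.65, the largest change of any member (0.81 ± 0.053, limma adjusted p = 0.000353). At day 3 it had 1.04 and 0.94 against 1.33 and 1.36 (0.41 ± 0.053). COV362, where the level was highest, had 3.74 and 3.63 against 3.31 and 3.55 (-0.10 ± 0.0465, adjusted p = 0.153). MDAMB436 had 1.65 and 1.66 against 1.79 and 1.85, and BT549 had 0.699 and 0.656 against 0.743 and 0.723 at day 5; neither passed. Of 7 interferon-induced genes in OVCAR8 at day 5, 4 fell and 1 (B2M) rose, with a median of -0.264, where 23% of all tested genes fell and 20.2% rose. IFI6 changed by -0.59 ± 0.0804, ISG15 by -1.46 ± 0.0784 and PSMB8 by -0.56 ± 0.0823 there.

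**Figure D4:**
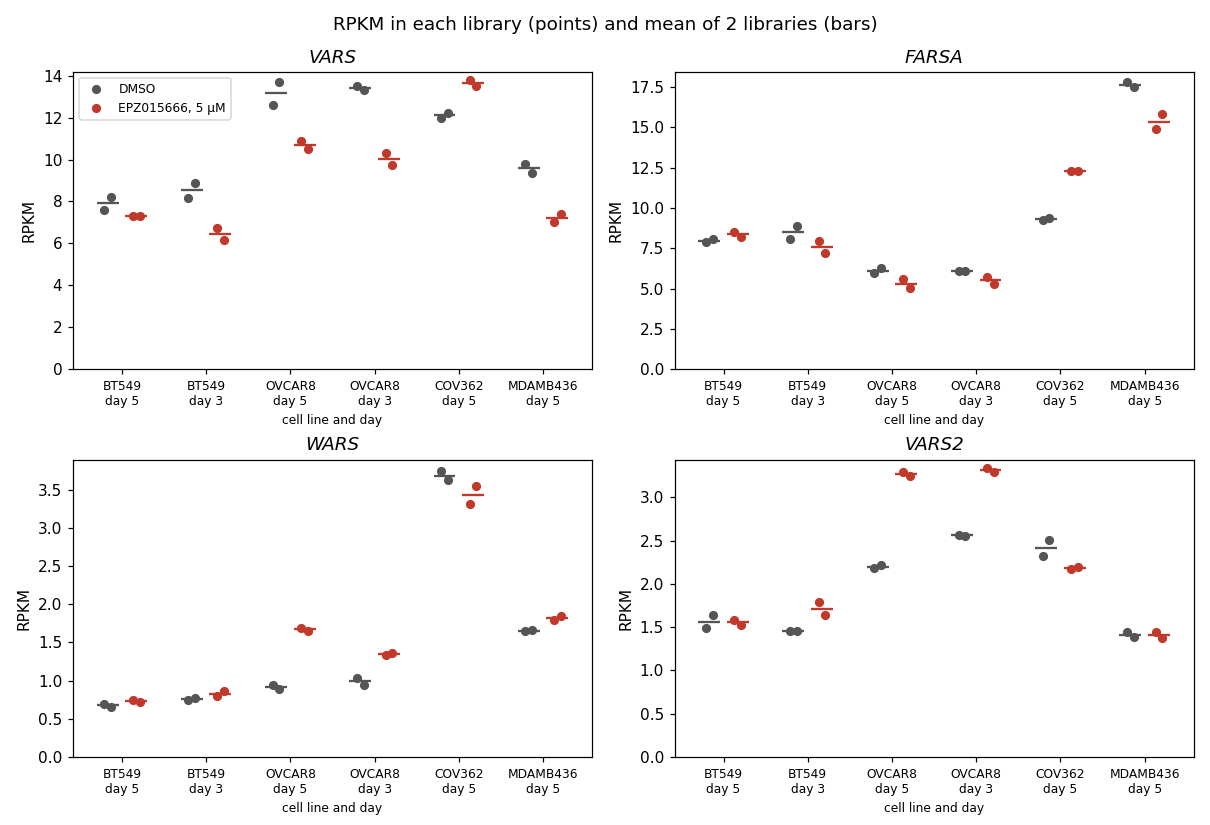
RPKM over the gene span of VARS, FARSA, WARS and VARS2 in each library (points) and the mean of 2 libraries (bars), DMSO in grey and 5 µM EPZ015666 in red, with the axis from 0. VARS is higher with the drug in COV362 alone (12 and 12.2 to 13.8 and 13.5), and WARS and VARS2 separate most in OVCAR8.

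VARS2, the mitochondrial valine enzyme, rose in OVCAR8, where its cytosolic counterpart fell. The DMSO libraries had 2.18 and 2.22 RPKM at day 5 and the EPZ015666 libraries 3.29 and 3.25. At day 3 they had 2.57 and 2.56 against 3.34 and 3.3. These were rises of 0.55 ± 0.0253 (limma, adjusted p = 0.000173) and 0.36 ± 0.0253 (0.00101), kept without each library. In COV362 it had 2.32 and 2.51 against 2.17 and 2.2 (-0.14 ± 0.048), in MDAMB436 1.44 and 1.39 against 1.45 and 1.38, and in BT549 at day 5 1.49 and 1.64 against 1.58 and 1.53. None of these passed, nor did BT549 at day 3 with 1.46 and 1.46 against 1.79 and 1.64. VARS2 shares part of its span with GTF2H4 on the same strand.

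CARS2, the mitochondrial cysteine enzyme, fell in BT549 and in OVCAR8. BT549 had 1.49 and 1.44 RPKM against 1.09 and 1.08 at day 5 and 1.59 and 1.64 against 1.27 and 1.25 at day 3. OVCAR8 had 1.18 and 1.19 against 0.96 and 0.951 at day 5. The changes were -0.40 ± 0.041 (limma, adjusted p = 0.00192), -0.34 ± 0.041 and -0.28 ± 0.0468. The BT549 day 3 fall was lost without EPZ015666 B (adjusted p = 0.0518). COV362, with the lowest level, had 0.36 and 0.366 against 0.403 and 0.423, and 0.15 ± 0.0482 did not pass (adjusted p = 0.0748). The cytosolic CARS rose in OVCAR8 at day 5 and in BT549 at day 3, where CARS2 fell.

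Among the other mitochondrial enzymes TARS2, for threonine, fell in 3 comparisons. TARS2 fell in OVCAR8 at day 5 from 2.63 and 2.47 to 2.08 and 2.01 (-0.31 ± 0.0469), at day 3 by 0.18 on the log2 scale and in COV362 by 0.12, both of these calls lost whichever library was left out. HARS2 (histidine) rose in OVCAR8 from 3.39 and 3.54 to 4.33 and 4.1 at day 5 (0.28 ± 0.0591), from 3.65 and 3.35 to 4.48 and 4.18 at day 3 (0.30 ± 0.0591) and in COV362 from 6.53 and 6.33 to 7.54 and 7.86 (0.26 ± 0.0353). These calls were lost without 2 libraries each, DMSO A and EPZ015666 A at day 5 and DMSO B and EPZ015666 A at day 3 in OVCAR8, and both DMSO libraries in COV362. YARS2 rose in OVCAR8 at day 3 from 1.49 and 1.49 to 1.73 and 1.76 (0.21 ± 0.0308) and in COV362 from 1.69 and 1.73 to 1.85 and 1.92 (0.14 ± 0.0339). WARS2 fell in COV362 from 0.37 and 0.38 to 0.284 and 0.303 (-0.27 ± 0.0546), a call lost whichever library was left out. In OVCAR8 at day 5 RARS2 (arginine) fell by 0.26 and EARS2 (glutamate) by 0.22 on the log2 scale; the RARS2 call was lost without DMSO A or EPZ015666 B. IARS2, LARS2, NARS2 and PARS2 passed in none of their drug comparisons, with changes between -0.26 (LARS2 in MDAMB436) and 0.18 (IARS2 in BT549 at day 3).

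The mean of the 4 day 5 effects was called in 25 of the 32 members tested, 16 rises and 2 falls of cytosolic and 3 rises and 4 falls of mitochondrial genes, where 33.8% of all tested genes rose and 31.8% fell. GARS (0.50), YARS (0.46), IARS (0.44) and MARS (0.39) led the rises. QARS (-0.45) and VARS (-0.16) were the cytosolic falls, and CARS2, TARS2 and WARS2 were among the mitochondrial ones. VARS is an average over opposite directions. EPRS (0.09 ± 0.0301, limma adjusted p = 0.0188) lost its call without BT549 DMSO day 5 library B.

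The cytosolic members with the element letters in a promoter window had the higher median of the common effects. All 7 (GARS, IARS, MARS, TARS, NARS, CARS, AARS) rose, with changes of 0.21 to 0.50 and a median of 0.361. Of the 9 matched members without the letters 7 rose and 1 fell, with changes of -0.45 (QARS) to 0.24 and a median of 0.162. Among all tested genes 33.8% rose and 31.8% fell in the common effect. In OVCAR8 at day 5 the medians were 0.566 with and 0.154 without the letters, and in BT549 at day 5 0.241 and 0.1. In COV362 they were 0.386 and 0.278, and in MDAMB436 0.128 and -0.0245. The 7 with the letters held no fall in any of the 6 comparisons, where 6.98% to 26.4% of all tested genes fell. YARS, which had no matched window, had 0.46. YARS2, the mitochondrial member with the letters, had 0.06 ± 0.0182. These are descriptions of chosen members with no test. The element was chosen with the changes of these members known, so the split adds no support for a part of the element. Changes of other genes with the letters were not read.

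**Figure D5:**
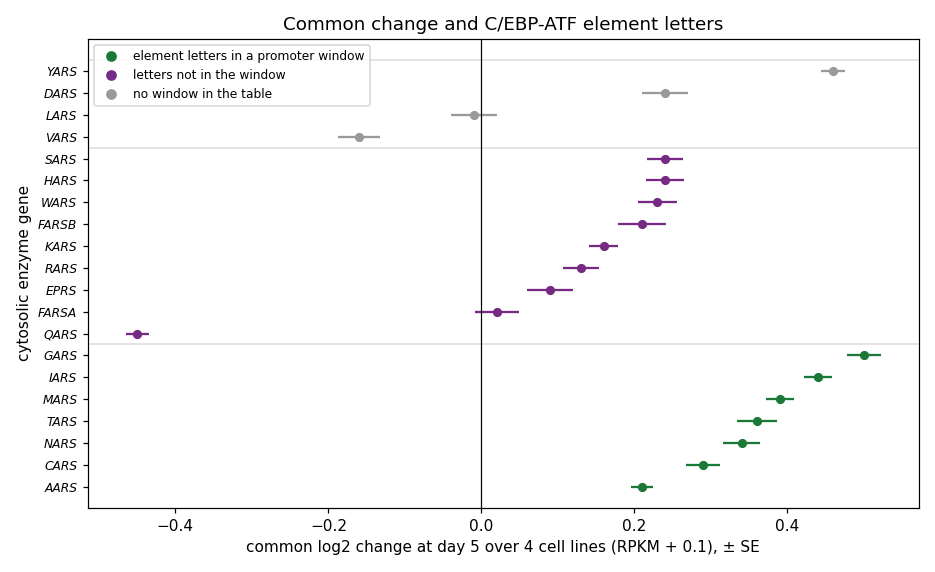
Common log2 change at day 5 over the 4 lines with its SE (x axis) for the 20 cytosolic members, in green those with the element letters in a promoter window, in violet those without and in grey those with no window in the table. The green points lie between 0.21 and 0.50 and the violet ones between -0.45 and 0.24, so the 2 sets meet between 0.21 and 0.24.

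The day 5 effects differed between lines for 30 of 32 members by the F test over the 4 effects (limma, adjusted over all tested genes), all 20 cytosolic and 10 of 12 mitochondrial ones. The background is high, since 65.8% of all tested genes passed that test. IARS2 and PARS2 did not pass. No member passed for a difference between the day 5 and day 3 effects in the limma fits of single lines. In BT549 the lowest adjusted p (limma) was 0.0948, with 5 members at an unadjusted p under 0.05 and 0.819% of all genes called. In OVCAR8 it was 0.064, with 8 such members and 0.937% called. Not passing does not show that the effects of the 2 days were equal. In the limma fit over all 24 libraries 5 members passed in BT549 and 2 in OVCAR8, and recovered reads (limma-voom) gave the same counts. In OVCAR8 the WARS effect at day 5 exceeded that at day 3 by 0.40 ± 0.0749 (adjusted p = 0.0652) and the VARS2 effect by 0.19 ± 0.0358 (0.064).

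Vehicle libraries also moved between days. In BT549 QARS rose by 0.22 ± 0.0436 (limma, adjusted p = 0.0386) and TARS2 by 0.18 ± 0.0353 (0.0369) from day 3 to day 5 in DMSO, where 8.77% of all genes were called, 5.62% higher and 3.15% lower. In OVCAR8, with 23.4% called (12% higher and 11.4% lower), AARS (0.26 ± 0.0293) and QARS (0.24 ± 0.0257) rose and HARS (-0.23) and VARS2 (-0.21) fell. QARS thus stood higher at day 5 than at day 3 in the vehicle of both lines and lower with the drug at both days. Each day 5 comparison used the DMSO libraries of its own day. With the day 3 vehicle in their place 7 members were called in BT549 and 23 in OVCAR8.

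Genes around tRNA charging and ATF4 were read as lists. XPOT, the exporter of tRNA from the nucleus, rose in 5 comparisons, with 0.45 ± 0.0343 in OVCAR8 at day 5 (4.04 and 4.22 against 5.66 and 5.7 RPKM) and 0.49 ± 0.0385 in COV362 (5.98 and 6.14 against 8.3 and 8.76). PUS1, a tRNA pseudouridine synthase, rose in BT549, OVCAR8 and COV362 at day 5 (0.45, 0.34 and 0.45). GATB, a subunit of the amidotransferase that makes mitochondrial glutaminyl-tRNA, fell in MDAMB436 (-0.53 ± 0.0486), as did its partner QRSL1 (-0.35 ± 0.0493). SEPSECS, of the selenocysteine pathway, rose in OVCAR8 (0.31 ± 0.0412 at day 5) and fell in COV362 (-0.27 ± 0.0532). At day 5 in OVCAR8, 4 of 11 such genes were called higher and 1 lower; in COV362, 3 of 10 were called higher and 2 lower. Among all tested genes 20.2% were higher and 23% lower in OVCAR8 at day 5, and 27.6% and 26.4% in COV362, so the COV362 counts lie near the background.

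The ATF4 and amino acid stress list had 24 of 28 genes in the table. In OVCAR8 17 of 23 rose and 1 fell at day 5 (median 0.634), and 16 rose and 1 fell at day 3 (median 0.448). In COV362 18 of 24 rose and 2 fell (median 0.539). In BT549 5 of 23 rose and 2 fell at day 5, and 3 rose and 1 fell at day 3, and in MDAMB436 5 of 24 rose and 5 fell. Rises among all tested genes were 20.2% and 11.5% in OVCAR8 at days 5 and 3, 27.6% in COV362, 13.6% and 5.76% in BT549 and 11.3% in MDAMB436, and the lines were not compared by a test. STC2, a secreted glycoprotein, rose in OVCAR8 at day 5 from 3.61 and 3.47 to 6.7 and 7.18 RPKM (0.95 ± 0.0516) and in COV362 from 7.99 and 7.95 to 17.3 and 17.6 (1.12 ± 0.0221). GPT2, an alanine aminotransferase, rose in 5 comparisons and PPP1R15A, a phosphatase subunit of the stress response, in COV362 (1.53 ± 0.0218) and MDAMB436 (0.46 ± 0.0309). PSAT1, of serine synthesis, rose in OVCAR8 (1.06 ± 0.0453 at day 5) and fell in COV362 (-0.47 ± 0.0222) and MDAMB436 (-0.23 ± 0.0303). DDIT4 (0.99, -0.42 and -0.34) moved in the same directions in those 3 lines. SLC7A5, the leucine carrier, rose in BT549 (0.58), OVCAR8 (0.67) and COV362 (1.11) at day 5 and fell in MDAMB436 (-0.29). CHAC1, of glutathione breakdown, rose in OVCAR8 (1.23 at day 5) and COV362 (0.88) and fell in MDAMB436 (-0.27). NUPR1, a stress regulator, fell in BT549 at day 5 (-0.64) and rose in COV362 (0.59) and MDAMB436 (1.09). ATF4 itself rose in OVCAR8, from 117.0 and 111.0 to 152.0 and 152.0 RPKM at day 5 (0.41 ± 0.0493), and had 0.04 ± 0.0281 in COV362.

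Elongation factors bring charged tRNAs to the ribosome or move it along. Of 4 cytosolic factors none rose in the 6 comparisons, and 3 fell in OVCAR8 at day 5 and 3 in COV362, where 23% and 26.4% of all tested genes fell. In COV362 EEF1A1 changed by -0.49 ± 0.0317 and EEF2 by -0.46 ± 0.0247. Of 4 mitochondrial factors 3 rose and 1 fell there, where 27.6% of all tested genes rose and 26.4% fell. In the common effect at day 5, 1 of these 4 rose and 1 fell, and none passed in BT549 at either day. GFM1 rose in OVCAR8 (0.32 ± 0.0352 at day 5), COV362 (0.46 ± 0.0673) and MDAMB436 (0.28 ± 0.0449). TUFM rose in COV362 (0.20 ± 0.0454) and fell in OVCAR8 at day 5 (-0.24 ± 0.0347).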

How the data were processed

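RNA was extracted with the RNeasy Plus Mini Kit and sequenced in 24 poly(A) RNA libraries, per the labels' protocols. Counting used featureCounts on GRCh38, per the submitters' processing notes, without stated versions. What the authors deposited is 1 table of RPKM, 16591 genes by 24 libraries. Multiplied by GENCODE v29 gene spans, they gave whole reads for 100% of the values checked (tolerance 0.02 read) in 16562 genes, so lengths include introns. A low pseudocount (0.1) and filter (mean RPKM of at least 0.1 per line) kept members with long introns.

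limma 3.58.1 (R 4.3.3, trend option) was fitted per line with 1 mean per group, and over all 24 libraries for the common effect and the F test. P-values are two-sided and Benjamini-Hochberg adjusted over all tested genes, threshold 0.05. Members and lists were chosen with earlier results of these data known. Named were the 3 largest called changes per class and comparison, members called alike in at least 5 or oppositely, GARS, KARS, EPRS, FARSA, FARSB and WARS, and 3 genes per other list. Alternatives were pseudocount 1, filters, median-of-ratios scaling, replicate block, other library sets, recovered reads with limma-voom (library totals, genes with at least 1 CPM in 2 libraries) and left-out libraries. Groups of 2 libraries limit precision. The values of 1 mitochondrial member are not reported here, though counts and medians include it. Code was tested on simulated data with 200 changed genes per comparison and a fixed spread not taken from the data. There 1.5-fold changes were called in 12% of cases for COV362 and 13% for MDAMB436. The shares were 61% and 64% for BT549 at days 5 and 3, and 58% and 48% for OVCAR8. Counts of calls in different lines therefore do not rest on equal power, and a change that did not pass is not shown to be absent.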

Additional observations from a re-analysis of the deposited data

Results flagged for a closer look

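By the F test over the 4 day 5 effects (limma, adjusted over all tested genes), 30 of 32 members differed between the lines, against 65.8% of all tested genes. The difference was largest in rank for WARS (adjusted p = 8.95e-07), which rose in OVCAR8 by 0.81 on the log2 scale and had -0.10 in COV362. IARS (adjusted p = 2.51e-06), QARS (2.56e-06) and YARS (3.16e-06) differed in size and not in sign, IARS from 0.13 in MDAMB436 to 0.73 in OVCAR8, QARS from -0.15 in MDAMB436 to -0.63 in COV362 and YARS from 0.28 in MDAMB436 to 0.74 in COV362. VARS2 (adjusted p = 6.8e-06) rose in OVCAR8 by 0.55 and had -0.14 in COV362. CARS2 (6.93e-06) fell in BT549 and OVCAR8 and had 0.15 in COV362. KARS (7.48e-06) rose by 0.49 in COV362 and had -0.04 in OVCAR8. FARSA (6.42e-05) and VARS (0.000124) had called changes of opposite sign, with rises of 0.39 and 0.18 in COV362 and falls of 0.20 and 0.40 in MDAMB436.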

How the results depend on the processing

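No result changed direction under the alternatives run. The single-gene results, with the 25 calls of the common effect included, kept their call in 1460 of 1657 alternative fits and lost it in 197. Leaving out a library lost 140 of 764, the replicate block 22 of 116 and the 4 libraries compared alone 17 of 59. Of the 25 common-effect calls 24 were kept without each library, so the losses lay almost wholly in the calls of single comparisons. Libraries of the same letter shared little deviation from their group means (correlation over genes -0.0696 to 0.0261). Such values cannot show whether the cultures were paired. With the replicate block the number of called members went from 8 to 5 in BT549 at day 3, from 10 to 0 in MDAMB436 and from 2 to 0 for BT549 DMSO between days; it moved no other count by over 1.5 times. In 1 fit over all 24 libraries it was 17 for BT549 day 5 (10 in the fit of the line), 20 for BT549 day 3, 17 for MDAMB436, 10 for BT549 DMSO, 5 for BT549 and 2 for OVCAR8 effects between days (0 each). Recovered reads with limma-voom gave 17 in both BT549 at day 5 and MDAMB436, 5 and 2 for the effects between days in BT549 and OVCAR8, and 9 and 8 for BT549 and OVCAR8 DMSO (2 and 5). The 4 libraries compared alone gave 0 for BT549 day 3 and for BT549 DMSO. No filter gave 6 in MDAMB436 and 1 for OVCAR8 between days, a filter of at least 1 RPKM gave 2 there, and median-of-ratios scaling 1 for BT549 DMSO. Leaving out a library gave 4 to 6 for BT549 day 5, 0 to 6 for BT549 day 3, 14 to 18 for COV362, 0 in MDAMB436, 0 to 2 for BT549 DMSO and 3 to 4 for OVCAR8 DMSO. The difference between class medians became 0.284 in OVCAR8 at day 5, 0.19 at day 3 and 0.26 in COV362 with a pseudocount of 1, which compresses low genes. It was 0.0379 in BT549 at day 5 with the day 3 vehicle, 0.268 in COV362 without GARS and KARS (added after seeing the data), and 0.286 to 0.317 there without a library. Except for the pseudocount, the causes were not tested. PARS2 had the fewest reads, 255 to 513 per library; whether read number limited the calls was not tested.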

Other observations

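The cytosolic members with the shortest introns were FARSA (median 96 bases), QARS (122) and VARS (134), each of which fell in at least 1 comparison, although FARSA and VARS rose in COV362. LARS, the other cytosolic member with a fall, had 1788. MARS (244) and HARS (326) also had short introns and rose, and the mitochondrial CARS2, which fell, had a median of 3807.5 bases. VARS2, which rose in OVCAR8, had 159. Across the 20 cytosolic genes the common effect and the median intron length had a Spearman correlation of 0.35, and across 12 mitochondrial genes of -0.34. These are correlations across genes of shared libraries, given as a description, and genes are not independent replicates. With transcript GC content the values were -0.05 and 0.06.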
